A study of Mus musculus with 20 samples.

Results

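The 7 mast cell genes described here are Cma1, Mcpt4, Tpsb2, Tpsab1, Cpa3, Hdc and Ms4a2. They were chosen by symbol, and each matched 1 of the 51826 gene identifiers in the count table. All 7 passed the filter on low counts, which left 18452 genes and asked for its level in 6 libraries, and each reached that level in 6 or more metastases. They were read in 14 lung metastases and in the 6 primary mouse sarcomas that the labels match with them. Every library carries the same genotype label, a mixed background, and names mouse tumour tissue as its source. The labels used here give no engineered allele, treatment, age, tumour site or statement of which samples share an animal. P-values therefore measure the spread between these samples, and several metastases of a set may come from the same mouse. A set is a primary tumour with its metastases: sets 1 and 2 have 4 metastases each, sets 3 and 6 have 2 each, and sets 4 and 5 have 1 each. Metastasis 2-3 is the one numbered 3 in set 2, and 5-x is that of set 5, which has no number.

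Mast cells are long-lived granulocytes that settle in connective tissue and mucosa after their precursors leave the blood. Their granules hold serine proteases (chymases and tryptases), a carboxypeptidase and histamine bound to heparin, and IgE on the high-affinity Fc receptor triggers their release. In mice, connective tissue mast cells of skin, muscle and serosa store the products of Cma1, Mcpt4, Tpsb2 and Cpa3, whereas mucosal mast cells store those of Mcpt1 and Mcpt2. Mouse lung has few mast cells outside its large airways and pleura.

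Primary tumours 4 and 6 stood apart from the other primary tumours. Their highest correlations with any other library across genes were 0.871 and 0.869, against 0.966 to 0.990 for primary tumours 1, 2, 3 and 5. The 20 skeletal muscle genes summed to 58.6 to 4663 CPM in metastases, where CPM are read counts scaled by library totals and TMM factors. The same sum was 5807 to 12879 CPM in primary tumours 1, 2, 3 and 5 and 16.2 to 47.5 CPM in primary tumours 4 and 6. Macrophage genes summed to 430 to 2539 CPM in metastases, 2386 to 3844 CPM in primary tumours 1, 2, 3 and 5 and 24.99 to 118 CPM in primary tumours 4 and 6. Lung epithelium genes summed to 111 to 15693 CPM in metastases and 11.1 to 149 CPM in primary tumours, so metastasis 2-4 (111 CPM) lay within the range of primary tumours. Results are therefore given with and without sets 4 and 6. Libraries held 20603620 to 36824370 counts, and 3 counts, the limit that a count of 0 allows, correspond to 0.0802 to 0.161 CPM.

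On mm10 (GRCm38), Cma1 lies on chromosome 14 from 55941451 to 55944675 and Mcpt4 from 56059629 to 56062313, both on the minus strand, 115.0 kb apart, with Cma2, Mcpt1, Mcpt9 and Mcpt2 between them. Tpsab1 lies on chromosome 17 from 25343245 to 25345562 on the minus strand, and Tpsb2 from 25366305 to 25369098 on the plus strand, 20.7 kb away. Cpa3 (chromosome 3, 20215620 to 20242181), Hdc (chromosome 2, 126593667 to 126619299) and Ms4a2 (chromosome 19, 11615523 to 11623719) are on minus strands, each on a chromosome with none of the other members. Because the proteases and Ms4a2 differed in direction from Hdc between metastases and primary tumours, their promoters are set side by side. RefSeq promoters on GRCm38.p6, from 250 bases before to 50 after the start, were found for 5 of the 7 genes. They cover chr14:55944626-55944925 for Cma1, chr14:56062261-56062560 for Mcpt4, chr3:20242132-20242431 for Cpa3, chr19:11623670-11623969 for Ms4a2 and chr2:126618629-126618928 for Hdc, each read on the minus strand, 5′ to 3′. Capitals mark the GATA motif (AGATAA or TGATAA, or the same with a last G, AGATAG or TGATAG, on either strand), the letters bound by GATA factors such as the mast cell factor GATA2.
Cma1: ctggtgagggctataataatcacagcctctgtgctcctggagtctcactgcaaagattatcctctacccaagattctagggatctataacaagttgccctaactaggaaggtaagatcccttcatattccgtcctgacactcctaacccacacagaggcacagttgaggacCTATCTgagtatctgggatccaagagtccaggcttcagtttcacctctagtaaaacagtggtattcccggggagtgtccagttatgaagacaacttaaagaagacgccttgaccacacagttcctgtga
Mcpt4: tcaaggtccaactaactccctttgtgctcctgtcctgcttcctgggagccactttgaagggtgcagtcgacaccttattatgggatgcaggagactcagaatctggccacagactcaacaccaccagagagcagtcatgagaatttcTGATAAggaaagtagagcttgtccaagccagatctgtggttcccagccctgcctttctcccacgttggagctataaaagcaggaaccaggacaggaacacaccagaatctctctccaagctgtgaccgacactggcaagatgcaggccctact
Cpa3: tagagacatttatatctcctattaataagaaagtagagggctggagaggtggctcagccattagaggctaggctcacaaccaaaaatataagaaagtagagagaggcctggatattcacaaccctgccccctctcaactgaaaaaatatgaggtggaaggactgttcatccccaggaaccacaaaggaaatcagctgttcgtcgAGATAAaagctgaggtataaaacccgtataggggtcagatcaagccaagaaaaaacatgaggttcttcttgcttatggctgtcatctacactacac
Ms4a2: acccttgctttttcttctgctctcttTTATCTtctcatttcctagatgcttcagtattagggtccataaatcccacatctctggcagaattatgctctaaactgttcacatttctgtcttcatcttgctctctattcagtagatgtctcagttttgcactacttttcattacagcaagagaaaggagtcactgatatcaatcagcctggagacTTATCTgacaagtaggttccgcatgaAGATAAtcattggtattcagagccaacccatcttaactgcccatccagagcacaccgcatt
Hdc: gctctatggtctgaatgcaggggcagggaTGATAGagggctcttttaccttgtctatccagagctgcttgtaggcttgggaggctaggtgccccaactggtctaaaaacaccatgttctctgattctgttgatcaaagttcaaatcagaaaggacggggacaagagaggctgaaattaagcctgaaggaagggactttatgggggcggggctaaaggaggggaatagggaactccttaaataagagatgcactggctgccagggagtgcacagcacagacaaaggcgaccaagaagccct

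Each of the 5 promoters held at least 1 GATA motif, a motif found in 29.8% of all 32851 promoters of the same length. The motif nearest the start began at position -79 in Cma1, -103 in Mcpt4, -46 in Cpa3 and -221 in Hdc. Ms4a2 held 3, at -224, -37 and -11, and 1.76% of all promoters held 3 or more. The letters CACGTG or CATGTG, read by the mast cell factor MITF, were in none of the 5 windows and in 20.4% of all promoters. A match is only a description of letters, and the part of these motifs in the levels was not tested. The Hdc window lies wholly inside the gene span given above, so its RefSeq start is not the outermost one annotated.

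The mast cell protease genes were at 0.0297 to 5.49 CPM in the lung metastases, against 6.45 to 151 CPM in 4 of the 6 primary tumours and none or 1 count in the other two, whereas the histamine-forming gene Hdc reached its highest levels in metastases. Of the 7 genes, 5 fell in lung metastases (Cma1, Mcpt4, Tpsb2, Tpsab1 and Cpa3) and 1 rose (Hdc), while Ms4a2 did not pass. The test was edgeR's quasi-likelihood test with the set as a block and a Benjamini-Hochberg adjusted p under 0.05 over all genes, by which 6.44% of genes fell and 7.34% rose. The median log2 fold change was -4.67 over the 7 genes and -0.0003 over all genes tested. In bulk tissue, fewer mast cells and less RNA per mast cell cannot be told apart. Without set 1, the 5 proteases had log2 fold changes of -5.08 to -4.22 and none passed (edgeR adjusted p 0.0659 to 0.105), in a fit where 2.36% of all genes fell. Without set 2 they were at -4.43 to -3.77 and none passed (0.0910 to 0.138), with 2.22% of all genes lower.

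**Figure D1:**
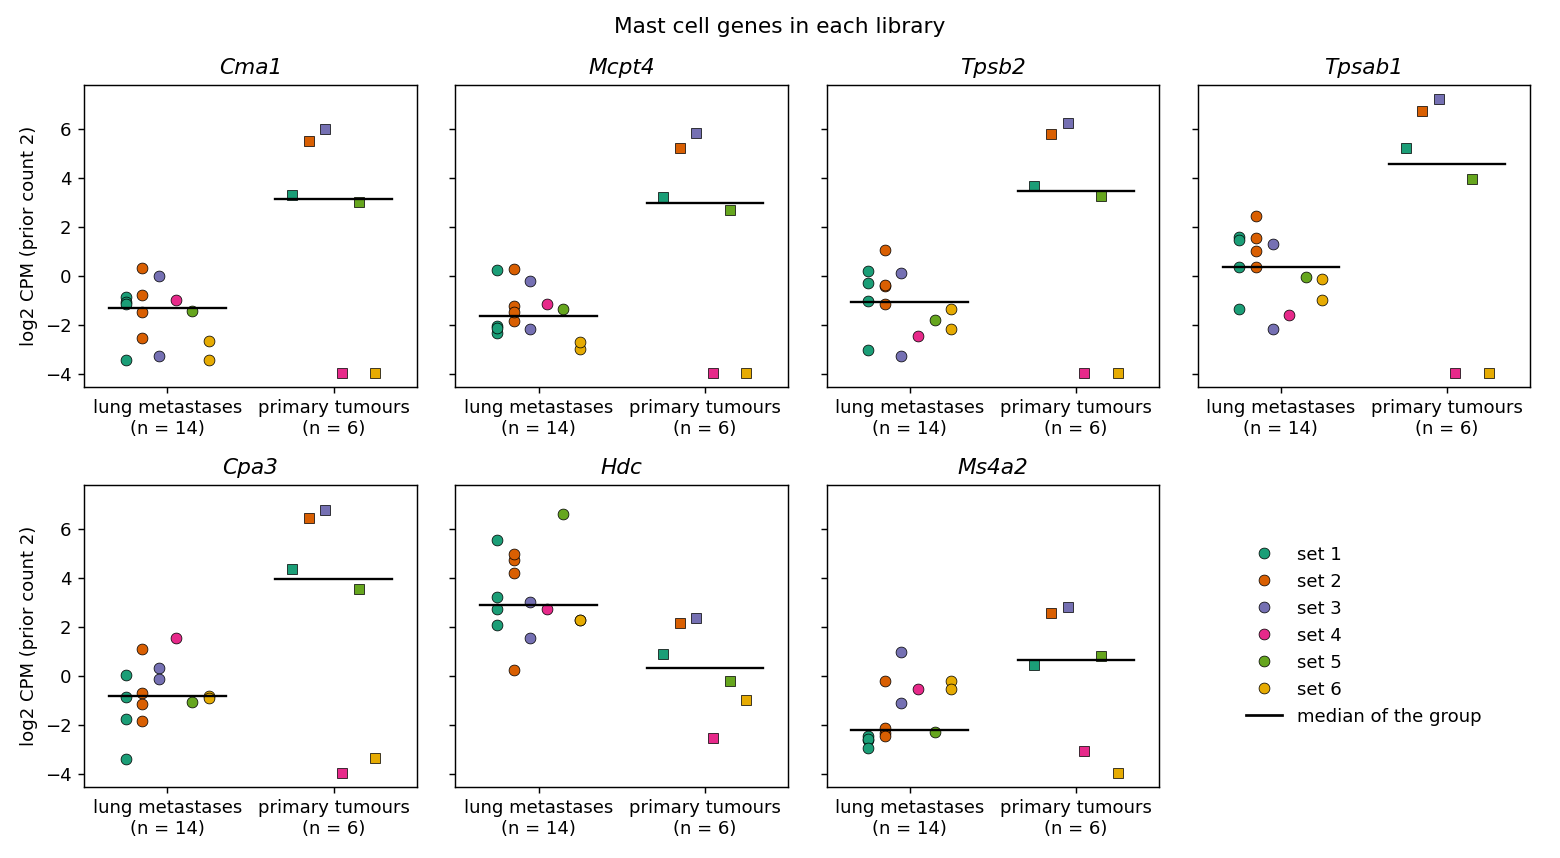
Log2 CPM (prior count 2) of each mast cell gene in the 14 lung metastases (circles, left) and the 6 primary tumours (squares, right), coloured by set, with a bar at the group median. For the 5 proteases, all metastases lie below primary tumours 1, 2, 3 and 5, and primary tumours 4 and 6 had 0 or 1 count, while Hdc has its highest values in metastases. The share of all genes that separate in this way is not given.

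The chymase genes are described first. Cma1 encodes a granule serine protease of connective tissue mast cells. It had 0.0297 to 1.19 CPM in metastases (median 0.349), against 9.76, 45.4, 63.5, 0, 8.07 and 0 CPM in primary tumours 1 to 6. All 14 metastases were below the lowest of primary tumours 1, 2, 3 and 5, which stood 6.78-fold above the highest metastasis. These primary tumours were set apart after the data were seen. The share of all genes that separate in this way is not given, here or below. Primary tumours 4 and 6 had no counts, and metastases 1-2, 2-3, 3-2, 6-1 and 6-2, with 1 to 3 counts, cannot be told from them. The log2 fold change was -4.93 ± 1.04 (SE, edgeR adjusted p = 0.00680), with means of 0.379 ± 0.344 CPM in metastases (SD, n = 14) and 21.1 ± 26.8 CPM in primary tumours (SD, n = 6). In set 3 Cma1 was 145-fold lower in metastases (20 counts over both, against 2335 in the primary tumour).

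Mcpt4 encodes the chymotrypsin-like chymase of connective tissue mast cells. Its level was 0.0637 to 1.16 CPM in metastases (median 0.258), against 9.38, 37.8, 57.6, 0, 6.45 and 0 CPM in primary tumours 1 to 6. Its highest metastases, 2-1 and 1-1 (1.16 and 1.13 CPM), remained 5.57-fold or more below the lowest of primary tumours 1, 2, 3 and 5. The log2 fold change was -4.67 ± 0.998 (SE, edgeR adjusted p = 0.00720). Of the reads of the 2 chymase genes, Mcpt4 had 1.04 per read of Cma1 over the metastases (95% counting interval 0.8291 to 1.2997) and 0.880 over primary tumours 1, 2, 3 and 5 (0.842 to 0.918). These intervals overlap, and intervals here and below cover counting error only. Of the 50-base windows of Mcpt4, 5.48% also occur in Cma2 or Mcpt9, so a small share of its reads may be uncertain, whereas none of those of Cma1, Tpsb2, Tpsab1 and Cpa3 occur in the other protease genes compared.

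The tryptases, trypsin-like proteases stored in granules as tetramers bound to heparin, were also highest in primary tumours 3 and 2. Tpsb2 had 0.0392 to 2.05 CPM in metastases (median 0.410), against 12.9, 55.5, 76.1, 0, 9.72 and 0 CPM in primary tumours 1 to 6 (log2 fold change -4.77 ± 1.03 SE, edgeR adjusted p = 0.00754). Tpsab1 had 0.157 to 5.49 CPM in metastases (median 1.23), against 37.8, 106, 151, 0, 15.4 and 0 CPM in primary tumours 1 to 6 (-4.23 ± 1.01, 0.0123). All 14 metastases were below the lowest of primary tumours 1, 2, 3 and 5 for both genes, which stood 4.74-fold above the highest metastasis for Tpsb2 and 2.80-fold for Tpsab1. The longest stretch shared by their transcripts is 39 bases. Tpsab1 had 3.00 reads per read of Tpsb2 over the metastases (2.59 to 3.48) and 2.02 over primary tumours 1, 2, 3 and 5 (1.95 to 2.09). Per length and per library, that ratio ran from 1.71 to 4.19 in metastases and from 1.20 to 2.23 in primary tumours 1, 2, 3 and 5, so single libraries overlapped.

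Cpa3 encodes the carboxypeptidase that is stored with the chymases and is made early in mast cell development. It had 0.0298 to 2.88 CPM in metastases (median 0.496), against 20.4, 86.7, 109, 0, 11.7 and 0.0337 CPM in primary tumours 1 to 6. The log2 fold change was -5.16 ± 1.15 (SE, edgeR adjusted p = 0.00903). Metastasis 4-1 was the highest of the metastases and stood apart in composition: it had 97 counts of Cpa3 beside 15 of Cma1, 13 of Mcpt4, 9 of Tpsab1 and 4 of Tpsb2. Per length, Cpa3 was 4.65-fold the level of Cma1 there, and 15.8-fold and 11.5-fold in metastases 3-2 and 6-2, where Cma1 had 1 count each. In primary tumours 1, 2, 3 and 5 the same ratio lay between 1.04 and 1.51.

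On a scale of CPM per kilobase of merged exons, which allows genes to be compared, Hdc had the highest level of the 7 genes in metastasis 5-x (15.1) and metastasis 1-1 (7.22), where the highest protease, Tpsab1, had 0.437 and 1.43. In the primary tumours with protease RNA it was the lowest. In primary tumour 3 the levels per length were 72.3 for Tpsab1, 72.1 for Cpa3, 58.3 for Cma1, 52.0 for Mcpt4 and 47.7 for Tpsb2, with 2.45 for Ms4a2 and 0.805 for Hdc. In primary tumour 5 they were 7.69 for Cpa3, 7.40 for Cma1, 7.34 for Tpsab1, 6.10 for Tpsb2, 5.82 for Mcpt4, 0.607 for Ms4a2 and 0.124 for Hdc. The 5 proteases were thus close to each other in primary tumours 3 and 5. In primary tumour 1 they ran more widely, from 8.10 for Tpsb2 to 18.1 for Tpsab1. The 5 proteases summed to 0.627 to 11.97 CPM in metastases, against 90.3, 331, 458, 0, 51.3 and 0.0337 CPM in primary tumours 1 to 6.

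**Figure D2:**
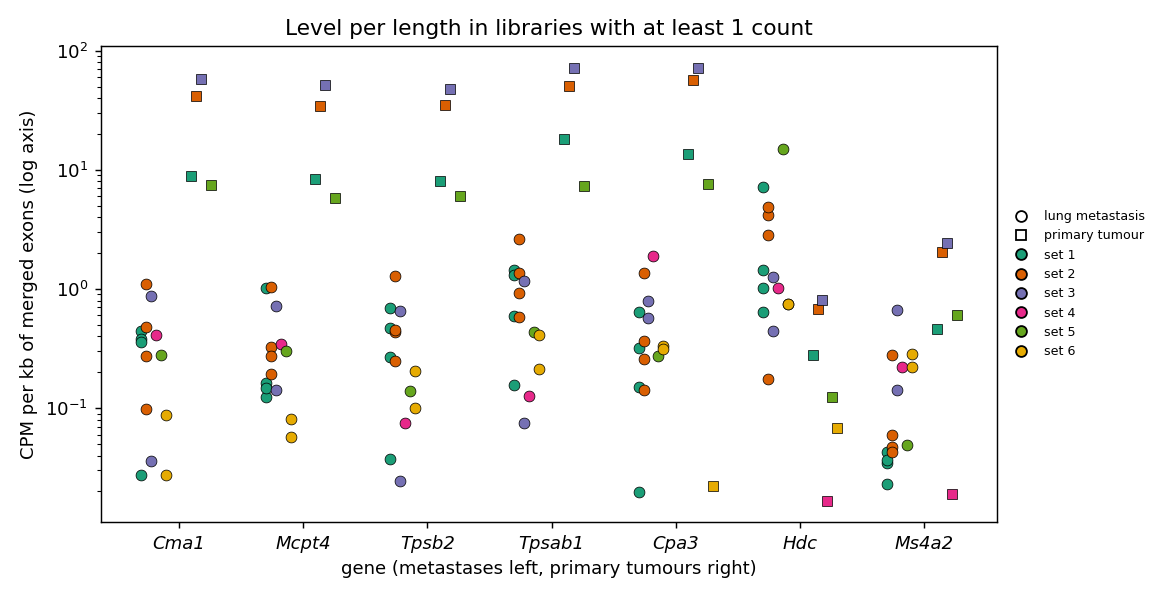
CPM per kilobase of merged exons (log axis) of each mast cell gene, for libraries with at least 1 count, with metastases (circles) left of primary tumours (squares) and colours for sets. Hdc reaches 15.1 in metastasis 5-x, and the 5 proteases of primary tumours 2 and 3 lie between 34.1 and 72.3.

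Hdc encodes histidine decarboxylase, which makes histamine from histidine, and is used by mast cells and basophils and, in mice, also by neutrophils and other myeloid cells. It had 1.11 to 96.6 CPM in metastases (median 7.32), against 1.79, 4.35, 5.14, 0.107, 0.795 and 0.438 CPM in primary tumours 1 to 6. Of the metastases, 9 of 14 were above the highest primary tumour, and the ranges overlapped. The log2 fold change was 2.93 ± 0.918 (SE, edgeR adjusted p = 0.0443), with higher values in 5 of 6 sets. The call was lost in 20 of 29 alternatives, among them 9 of the 12 that left out 1 metastasis (adjusted p 0.0231 to 0.0641). Over metastases there were 25.5 reads of Hdc per read of Cpa3 (22.9 to 28.5), or 16.1 (14.4 to 18.1) without metastasis 5-x, which had 3485 of the 8789 Hdc reads. Over primary tumours 1, 2, 3 and 5 there were 0.0531 (0.0480 to 0.0585). In single metastases the ratio per length of Hdc to Cpa3 ran from 0.539 to 73.4, against 0.0112 to 0.0208 in primary tumours 1, 2, 3 and 5, so these libraries did not overlap in this ratio, although Cpa3 had 1 count in the metastasis with the highest.

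The metastases richest in Hdc were also those richest in lung epithelium genes. Hdc was 96.6, 46.1, 31.2 and 26.5 CPM in metastases 5-x, 1-1, 2-2 and 2-1, and lung epithelium genes summed to 12000, 15693, 4222 and 3599 CPM there, the 4 highest sums of the series. Neutrophil genes summed to 136, 586, 136 and 150 CPM in the same libraries. Over all metastases the neutrophil sum was 21.9 to 586 CPM, against 43.9 to 368 CPM in primary tumours 1, 2, 3 and 5 and 0.482 to 2.46 CPM in primary tumours 4 and 6, with Camp, Cxcr2 and Ngp at 0 in both of those. Primary tumour 1 had the second highest neutrophil sum (368 CPM) and 1.79 CPM of Hdc. With the lung epithelium index (the mean log2 CPM of its genes) as a covariate, the log2 fold change of Hdc was 0.10 (edgeR adjusted p = 0.960). Lung epithelium genes themselves differed between the groups (15 of 18 rose), so this fit cannot tell lung content from group. The parts of lung tissue and of neutrophils in the Hdc level were not tested.

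Ms4a2 encodes the beta chain of the high-affinity IgE receptor, which amplifies its signal. It had 0.0654 to 1.88 CPM in metastases (median 0.152), against 1.31, 5.81, 6.88, 0.0535, 1.71 and 0 CPM in primary tumours 1 to 6. Of the 14 metastases 13 were below the lowest of primary tumours 1, 2, 3 and 5, the exception being metastasis 3-2. The log2 fold change of -2.66 ± 0.859 (SE) did not pass (edgeR adjusted p = 0.0503), but it passed without the set as a block (-2.60, 0.0362) and without sets 4 and 6 (-3.63 ± 0.502, 0.00144). In that fit it met the filter on low counts only through the primary tumours, so that call is not independent of the filter.

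Within the metastases, Ms4a2 was highest in other libraries than the tryptases. It was 1.88, 0.796, 0.791, 0.624 and 0.623 CPM in metastases 3-2, 6-1, 2-3, 6-2 and 4-1 (48, 25, 22, 21 and 21 counts), where Tpsab1 was 0.157, 0.446, 1.22, 0.861 and 0.267 CPM. Over the 14 metastases the correlation of log2 CPM was -0.625 between Ms4a2 and Tpsab1 and 0.978 between Tpsb2 and Tpsab1, as a description over libraries that may share animals and with low counts of Ms4a2. The same 5 metastases had the highest counts of Cd200r3, a receptor of mast cells and basophils: 58, 31, 34, 40 and 13, with at most 11 in the other metastases. Mcpt8, a basophil protease, had 16, 10, 47, 18 and 14 counts there and at most 9 in the others. Other genes of the basophil list followed this order only in part or not at all. Fcer1a, which encodes the IgE-binding chain of the same receptor, had 7, 4, 7, 2 and 21 counts in these 5 metastases and up to 9 in the others. Il3ra, an interleukin 3 receptor chain, had 0 counts in metastasis 3-2 and 1 in metastasis 4-1. Cyp11a1 had 11, 60, 81, 54 and 8 counts in these 5 metastases and up to 18 in the others. Cyp11a1, Mcpt8 and Fcer1a were chosen after their values were seen. The 11 basophil genes summed to 31.1 to 142 CPM in metastases, 73.0 to 82.5 CPM in primary tumours 1, 2, 3 and 5 and 7.55 to 10.4 CPM in primary tumours 4 and 6, where Ccl3, Fcer1a, Il4 and Prss34 were at 0. The lowest sums of the metastases were those of 4-1 (31.1 CPM) and 3-2 (34.7 CPM). The part of basophils in the Ms4a2 level was not tested.

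The direction of the protease difference depended on the primary tumour. By log2 CPM, all 5 proteases and Ms4a2 were lower in metastases in sets 1, 2, 3 and 5 and higher in sets 4 and 6. In sets 2 and 3 Cpa3 was 108-fold and 109-fold lower in metastases, and in sets 1 and 5 it was 48.8-fold and 28.1-fold lower. In set 4 the metastasis was at least 17.9-fold higher for Cpa3, 2.77-fold for Cma1, 2.40-fold for Mcpt4 and 1.66-fold for Tpsab1, against a primary tumour with no counts of them (3 counts in that library taken as the limit). In set 6 the metastases were at least 6.54-fold higher for Tpsab1, 2.43-fold for Tpsb2 and 6.998-fold for Ms4a2, and 14.6-fold higher for Cpa3 (2.44 to 595), of which the primary tumour had 1 count. No fold is given for Tpsb2 in set 4 or for Cma1 and Mcpt4 in set 6, where the metastases were themselves below that limit. The summed protease level of the metastases of these sets, 4.10 CPM in metastasis 4-1 and 1.27 and 1.78 CPM in metastases 6-1 and 6-2, lay within the 0.627 to 11.97 CPM of the other metastases.

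**Figure D3:**
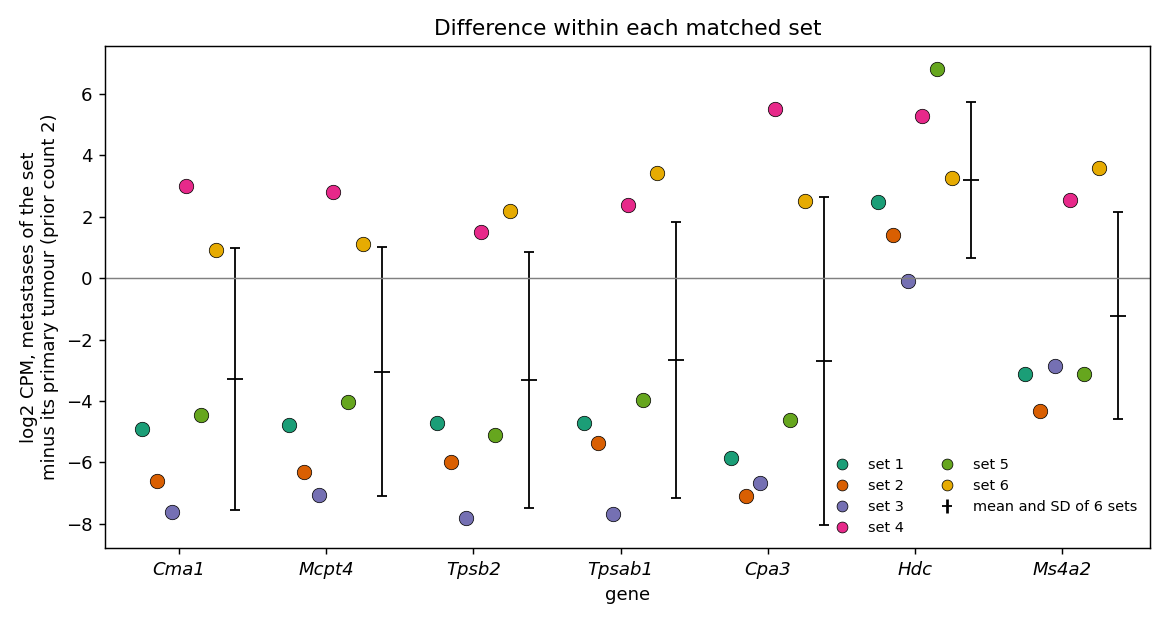
Difference in log2 CPM (prior count 2) of each gene between the mean of a set's metastases and its primary tumour, 1 point per set, with the mean and SD of the 6 sets as a bar. Sets 4 and 6 lie above 0 and sets 1, 2, 3 and 5 below it for every gene but Hdc, which is below 0 only in set 3 (-0.09).

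With each set counted once, the mean difference in log2 CPM was -3.28 ± 4.27 for Cma1 (SD, n = 6, exact two-sided sign-flip permutation p = 0.125) and -2.70 ± 5.35 for Cpa3 (exact p = 0.281). For Hdc it was 3.19 ± 2.53 (SD, n = 6, exact p = 0.0625), and with metastasis 1 of each set alone 3.87 (exact p = 0.0313, the smallest that 6 sets allow). The other genes had exact p-values of 0.125 to 0.406. Variation of the difference between the 6 sets, tested as an edgeR interaction that called 4.1% of all genes, passed for 1 of the 7 genes, Cpa3 (adjusted p = 0.0487). Adjusted p-values of the others were 0.0565 for Ms4a2, 0.0902 for Tpsab1, 0.0905 for Mcpt4, 0.130 for Cma1, 0.132 for Tpsb2 and 0.442 for Hdc. With 1 primary tumour a set, this test takes its spread from the metastases alone.

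Without sets 4 and 6, an alternative chosen after seeing the data, the falls were larger and more even. Of the 7 genes 6 fell, Ms4a2 with the limit given above, and 0 rose, where 5.66% of 18804 genes fell and 4.17% rose. Cpa3 had a log2 fold change of -6.13 ± 0.600 (SE, edgeR adjusted p = 0.000236), and the other proteases -5.91 to -5.24. Hdc, at 2.41 ± 1.12, did not pass (adjusted p = 0.199). The interaction passed for 0 genes of 18804 there, with 0 of the 7 genes at an unadjusted p under 0.05. In the interaction fit single sets could also be read, although the 1 primary tumour of a set has no measured spread of its own and is assumed to vary like the metastases. Mcpt4 (-6.21, edgeR adjusted p = 0.0456) and Cpa3 (-6.73, 0.0412) passed as lower in set 2, where 0.168% of genes did. Ms4a2 passed as higher in set 6 (adjusted p = 0.0468), where 8.23% of genes did, against a primary tumour with 0 counts. Among the 12 metastases of sets 1, 2, 3 and 6, 0 of the 7 genes differed between sets by edgeR, with 1 (Ms4a2, adjusted p = 0.0889) at an unadjusted p under 0.05, where 0.321% of 19919 genes were called.

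Protease levels across libraries went with markers of several tissues and cells in the primary tumours, among them skeletal muscle and macrophages. The 4 primary tumours with protease RNA were those with 5807 CPM or more of muscle genes and 2386 CPM or more of macrophage genes. Within them the order differed: primary tumour 5 had the highest muscle sum (12879 CPM) and the lowest protease sum (51.3 CPM). Metastasis 2-3 had the highest muscle sum of the metastases (4663 CPM) and 2.16 CPM of proteases, while metastasis 2-1 had 806 CPM of muscle genes and the highest protease sum, 11.97 CPM. T and natural killer cell genes summed to 3.22 to 25.5 CPM in metastases, 52.0 to 229 CPM in primary tumours 1, 2, 3 and 5 and 7.06 to 8.01 CPM in primary tumours 4 and 6. Fat genes (252 to 612 against 5.14 to 101 CPM) and neutrophil genes (43.9 to 368 against 0.482 to 2.46 CPM) divided the primary tumours likewise. Fibroblast genes did not (1659 to 4231 against 1935 to 2150 CPM). With the index of muscle genes added as a covariate, the log2 fold changes of the 5 proteases were -1.47 to -0.60 and none passed (edgeR adjusted p 0.546 to 0.785), while 11.9% of all genes were lower in that fit, and Ms4a2 was at 0.32 (0.836). Muscle genes themselves differed between the groups (13 of 20 fell), so this fit cannot tell muscle content from group. The parts of muscle, of macrophages and of T and natural killer cells in the protease levels were not tested.

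**Figure D4:**
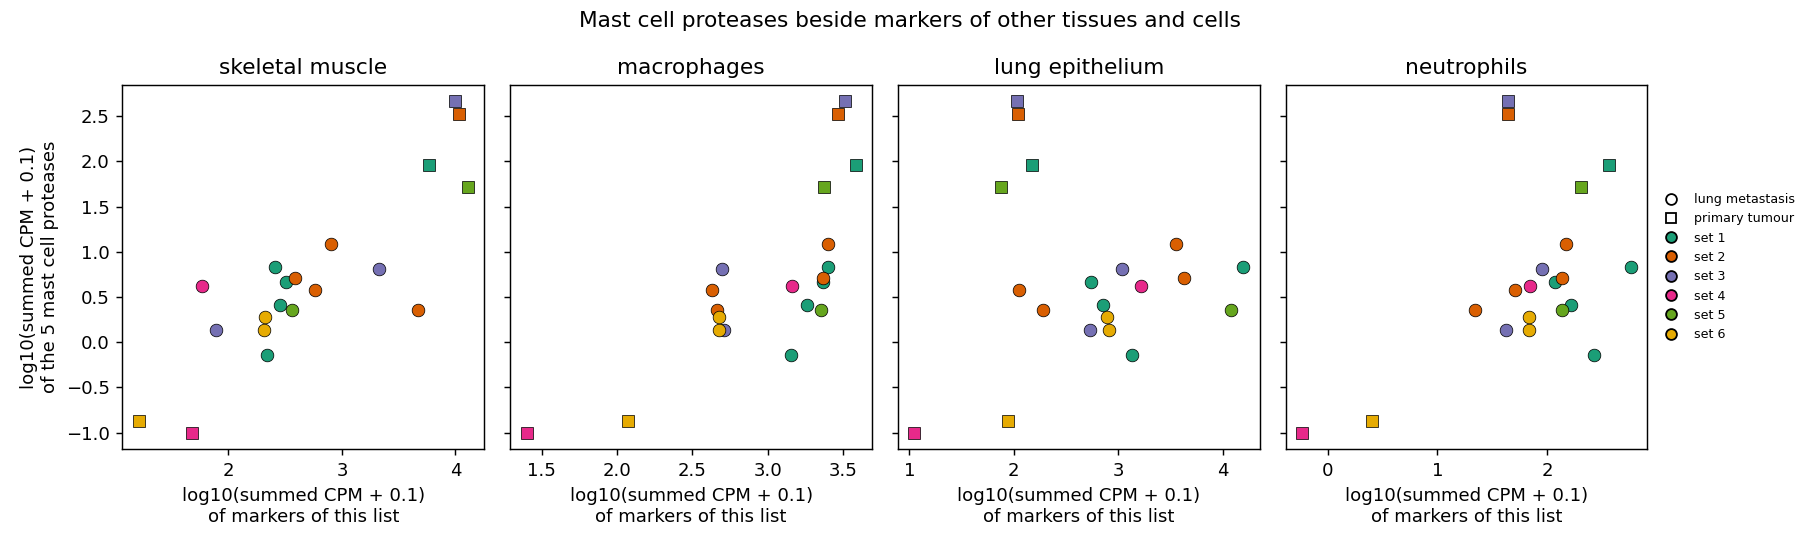
Summed CPM of the 5 mast cell proteases (log10 of CPM + 0.1, vertical) against the summed CPM of 4 marker lists (horizontal, same scale), with metastases as circles, primary tumours as squares and colours for sets. Primary tumours 1, 2, 3 and 5 are at the upper right for muscle and macrophages, and primary tumours 4 and 6 at the lower left.

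Other mast cell genes were followed from a list of 30, of which 23 were tested. The list's median was -0.11 on the log2 scale. Of the 23, none rose and 3 fell, where 6.44% of all genes fell. The genes that fell are Il1rl1, the receptor of the cytokine interleukin 33 (-5.52 ± 0.736 SE, edgeR adjusted p = 0.000707, means of 9.70 CPM in metastases and 376 CPM in primary tumours), Mrgprb1, a receptor gene of connective tissue mast cells (-4.63 ± 1.06, 0.0103), and Tph1, which starts serotonin synthesis (-2.17 ± 0.586, 0.0231). Il1rl1 was at 504 CPM in primary tumour 6, which had 1 count over the 5 proteases, so its level there did not follow theirs. Mrgprb1 reached the filter's level in 3 metastases and 4 primary tumours, and Tph1 in 5 and 4. Slc18a2, the transporter that loads histamine into granules, did not pass with all sets (-2.72, edgeR adjusted p = 0.0567). Its log2 fold change was -3.74 without sets 4 and 6 (edgeR adjusted p = 0.00890). In that fit Slc18a2 met the filter on low counts only through the primary tumours, so that call is not independent of the filter. Kit, the receptor of stem cell factor on which mast cells depend, was at 14.9 ± 15.3 CPM in metastases (SD, n = 14) and 13.5 ± 11.6 CPM in primary tumours (SD, n = 6), with a log2 fold change of 0.01 ± 1.02 (SE, edgeR adjusted p = 0.997). The factors Gata2 (0.57, 0.523) and Mitf (-0.50, 0.0564) did not pass either. Slc18a2, Kit, Gata2 and Mitf were chosen after their values were seen.

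Fcer1a and Mrgprb2, the receptor for basic secretagogues, did not pass the filter on low counts with all sets and are given as levels, both chosen after their values were seen. Mrgprb2 was at 0 to 0.248 CPM in metastases, against 1.07, 6.14, 6.83, 0, 0.707 and 0 CPM in primary tumours 1 to 6. Fcer1a was at 0 to 0.623 CPM in metastases, against 1.497, 8.59, 14.0, 0, 0.972 and 0 CPM in primary tumours 1 to 6.

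**Figure D5:**
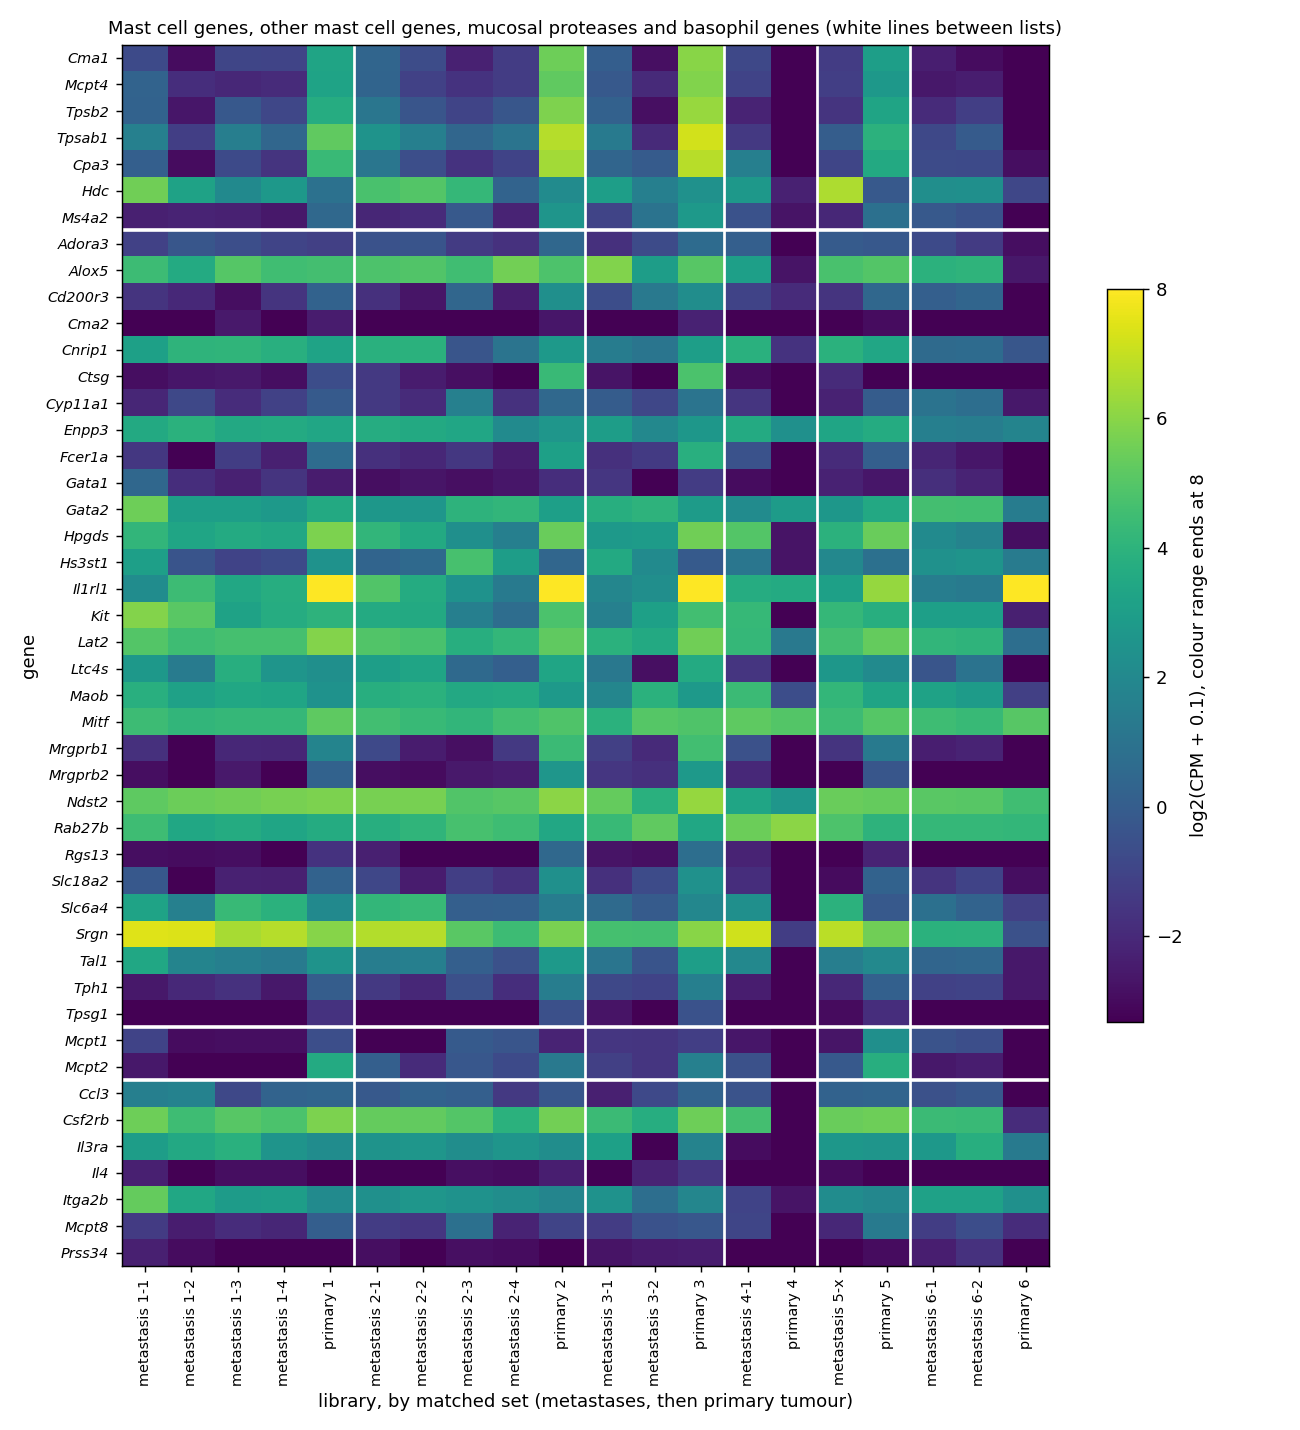
Log2(CPM + 0.1) of the mast cell genes, other mast cell genes, mucosal proteases and basophil genes (rows) in each library (columns), by set with the metastases left of their primary tumour. Hdc is brightest in metastasis 5-x, and the protease rows are brightest in primary tumours 2 and 3.

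Mcpt2, a mucosal mast cell protease, divided the primary tumours differently from the connective tissue ones. It had 0 to 0.992 CPM in metastases, against 12.1 and 13.8 CPM in primary tumours 1 and 5, 2.27 and 2.97 CPM in primary tumours 2 and 3 and 0 CPM in primary tumours 4 and 6. Per read of Cma1 there were 0.899 reads of Mcpt2 over the metastases (0.711 to 1.13), against 1.44 in primary tumours 1 and 5 (1.303 to 1.60) and 0.0480 in primary tumours 2 and 3 (0.0411 to 0.0556). Ctsg, the cathepsin G gene of mast cells and neutrophils, had the opposite order, with 0.165 reads per read of Cma1 over the metastases (0.104 to 0.250), 0.0313 in primary tumours 1 and 5 (0.0190 to 0.0487) and 0.443 in primary tumours 2 and 3 (0.418 to 0.469). Of primary tumours 1 and 5, Ctsg had 20 counts in the first and 0 in the second. Single metastases were uneven in Mcpt2: those of set 1 had 2, 0, 0 and 0 counts beside 15, 1, 12 and 12 of Cma1. Metastasis 5-x had 29 counts of Mcpt2 beside 11 of Cma1. The pairs of primary tumours were chosen after their values were seen, and the ratios are given without a test. Between groups Mcpt2 did not pass (log2 fold change -3.97 ± 1.29 SE, edgeR adjusted p = 0.0522) and passed without sets 4 and 6 (-5.37, 0.00790), and Mcpt1 did not pass (-0.54 ± 1.25, 0.817). Mcpt1 was high in primary tumour 5 alone (4.89 CPM), with 0 to 0.827 CPM in metastases and 0 to 0.561 CPM in the other primary tumours. Ctsg was named after its values were known.

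Of 8 tested neighbours in the chymase locus on chromosome 14, 5 fell, where 6.44% of all genes did. All 5 were granzyme genes, which cytotoxic lymphocytes use. Those of smallest p, Gzmd (log2 fold change -8.09), Gzmf (-7.90) and Gzme (-6.77), reached the filter's level in 4 primary tumours and in 2 or 3 metastases. The other 3 tested were the proteases Mcpt1, Mcpt2 and Mcpt8, and none of them passed. Of 8 basophil genes tested, 0 passed by edgeR and 1 was lower at an unadjusted p under 0.05, Cd200r3 (-1.93, adjusted p = 0.138), followed by Itga2b (0.86, 0.210) and Il3ra (0.79, 0.480). Of 19 genes of IgE receptor signalling, the kinase gene Fyn fell (-0.73 ± 0.113 SE, edgeR adjusted p = 0.00146, lower in 6 of 6 sets), and Plcg1 did not pass (0.31, 0.231). Without sets 4 and 6, 11 of 20 IgE receptor signalling genes fell (median -1.08) and 2 of 9 basophil genes (-0.77), where 5.66% of all genes did. Fcer1a, on both lists, Ms4a2 and Cd200r3 met the filter there only through the primary tumours.

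The counts of this paragraph stand beside 7.34% of all genes that rose and 6.44% that fell. Of 19 granule and histamine genes, 2 rose: Hdc and Aoc1, which encodes diamine oxidase, the enzyme that breaks down histamine outside cells (log2 fold change 6.04 ± 1.12 SE, edgeR adjusted p = 0.00356, higher in 6 of 6 sets). Aoc1 reached the filter's level in 9 metastases and 0 primary tumours, so this call is not independent of the filter. It was at 0.0297 to 5.58 CPM in metastases and at most 0.0589 CPM in primary tumours, under 3 counts. The granule membrane gene Cd63 did not pass (0.55, 0.0551). Of 9 lipid mediator genes 0 passed by edgeR and 0 had an unadjusted p under 0.05: Pla2g4a (-0.75, adjusted p = 0.191), Ptgs2 (-2.15, 0.198) and the prostaglandin D synthase gene Hpgds (-1.26, 0.371) had the smallest p. Of 11 growth factor and attractant genes the chemokine gene Ccl5 fell (-2.69 ± 0.331 SE, edgeR adjusted p = 0.000384), while Cxcl12 (-1.01, 0.0914) did not pass, and Il3 and Il9 had no counts in any library.

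Marker lists of surrounding tissue gave the following counts, where 6.44% of all genes fell and 7.34% rose. Of 20 skeletal muscle genes 13 fell (median log2 fold change -4.42), with Tmod4, Pvalb and Mybpc2 of smallest p, and of 18 lung epithelium genes 15 rose (6.37), with Nkx2-1, Foxa2 and Sec14l3 first. These lung genes reached the filter's level in 0 primary tumours, so their calls are not independent of the filter. Of 15 fibroblast genes 1 fell (Lum), of 11 fat genes 1 (Ucp1) and of 16 T and natural killer cell genes 5 (Ccl5, Lck and Gzmb first). Of 14 macrophage genes Marco, Chil3 and Mertk rose, although the list's median was -0.51, and of 8 neutrophil genes 4 rose (S100a8, Retnlg and Ltf first). Marco, Retnlg and Ltf reached the filter's level in 1 primary tumour each, so their calls are not independent of the filter either. Without sets 4 and 6, 3 of 14 macrophage genes rose and 2 fell, with a median of -1.53. There 18 of 20 skeletal muscle genes and 9 of 16 T and natural killer cell genes fell, where 5.66% of all genes did. Of the latter, Gzmb, Ncr1, Nkg7 and Prf1 met the filter only through the primary tumours, so their calls are not independent of it. Of 18 lung epithelium genes 10 rose there, where 4.17% of all genes did. All of these but Cyp2f2 and Ager met the filter only through the metastases, with the same limit. Of the 3 skin genes and the 3 eosinophil genes tested 0 passed by edgeR, with 1 eosinophil gene at an unadjusted p under 0.05 (Siglecf).

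The genes whose pattern was most like that of the 7 were sought by Pearson correlation over the 20 libraries with their mean standardised log2 CPM, after group means were subtracted. The highest were C130074G19Rik (0.955), Mmrn2 (0.954), Cd300lg (0.954), Cables1 (0.951), Synm (0.947), Acss1 (0.944), Lrmp (0.940), Icosl (0.938), Galnt17 (0.938) and Entpd1 (0.937). Of these only Synm (log2 fold change -2.64, edgeR adjusted p = 0.00576) and Galnt17 (-2.88, 0.0458) fell in metastases. The 7 genes themselves had 0.955 to 0.983 for the proteases, 0.739 for Ms4a2 and 0.670 for Hdc. Each of the 7 is part of the mean it was correlated with, which raises its value, so these are not comparable with those of the 10 genes. All these points share library depth and the 2 primary tumours without protease RNA, and 2 of the 10 genes were among the 10 highest when set means were subtracted, as were 2 with no subtraction.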

How the data were processed

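Total RNA of 14 lung metastases and 6 primary tumours was extracted with Direct-zol and made into stranded, ribosome-depleted (Ribo-Zero Gold) libraries, per the labels' protocols. Trimmomatic 0.36, STAR (version string 5.5.4b, doubtful as a STAR release) and HTSeq with mm10 are named in the submitters' processing notes. The authors deposited whole-number read counts per gene without normalization. Neither strand setting nor annotation release is given in the sources used here, and overlapping genes cannot be separated with certainty (among the 7, only Cpa3 overlaps another, Mir7007). Gene symbols, exon lengths and coordinates came from GENCODE M21, and 51633 of 51826 identifiers matched.

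The 7 genes, the lists and the tests were chosen with earlier results of these data known. Counts were filtered with filterByExpr (minimum count 10), scaled by TMM and tested with edgeR 4.0.16 (R 4.3.3) in a robust quasi-likelihood fit with the set as a block (13 residual degrees of freedom), and p-values were adjusted by Benjamini-Hochberg over all genes tested. The pairing comes from the labels, whose numbers tie each metastasis to its primary tumour. As a check, primary tumours and their metastases deviated from the group means with a correlation of 0.0684 on average, over 1000 genes. By set it ran from -0.221 (set 5) to 0.310 (set 1), so this check does not itself establish the pairing. No 2 columns were identical, and the closest libraries, metastases 6-1 and 6-2 (r = 0.994), differed beyond sampling noise (chi-square 26.3 per degree of freedom), so each library counted once. Log2 CPM used a prior count of 2. Exact sign-flip tests used 64 patterns. Intervals of ratios are exact 95% intervals of counts. Alternatives used limma 3.58.1 and DESeq2 1.42.0. The tests were checked on simulated data.

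Named genes were the 7, all genes past the threshold in the mast cell, mucosal and basophil lists (otherwise the 3 of smallest p), the 3 of smallest p in other lists and the 10 most like the 7. Genes named otherwise are marked as chosen after their values were seen. Some genes that this rule names, and 1 list, are not reported here.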

Additional observations from a re-analysis of the deposited data

Results flagged for a closer look

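In 21 checks, of the 7 genes in the 6 primary tumours, the 4 metastases of set 1 and the 4 metastases of set 2, 4 values lay far from the others of their group, all among metastases, where chance flags about 1 in 20. The measure is the gap to the nearest library over the range of log2 CPM in the set. Cma1 in metastasis 1-2 (1 count) stood low among the metastases of set 1 (0.897), and Mcpt4 in metastasis 1-1 (35 counts) stood high in the same set (0.895). Hdc in metastasis 2-4 (37 counts) stood low among the metastases of set 2 (0.837), and Ms4a2 in metastasis 2-3 (22 counts) stood high (0.857).

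The difference of Cpa3 between metastases and primary tumour varied between the 6 sets by the edgeR interaction test (adjusted p = 0.0487). It was -5.86, -7.08, -6.66 and -4.61 on the log2 CPM scale in sets 1, 2, 3 and 5 and 5.52 and 2.50 in sets 4 and 6.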

How the results depend on the processing

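Of the 7 genes, 5 were lower in metastases, where 6.44% of all genes were. The count became 0 with limma voom and the set as a random effect (6.71% of all genes), 0 with the metastases of a set summed (0.357%), 0 with only metastasis 1 of each set (0.627%), 0 with a covariate for muscle genes (11.9%) and 3 with a covariate for lung epithelium genes (3.26%). It ranged from 0 to 6 when 1 set was left out (0 without set 1 or set 2, with 2.36% and 2.22% of all genes) and from 5 to 6 when 1 metastasis was left out. Without the replicate block, 6 were lower, with Ms4a2 passing, and no other of the 7 calls changed. The 5 proteases stayed lower in all 29 alternatives, with log2 fold changes from -7.16 to -0.60. Ms4a2 turned to 0.32 with the muscle covariate (adjusted p = 0.836), and the log2 fold change of Hdc ran from 0.10 to 3.96. The interaction count of 1 became 0 with DESeq2 size factors and 0 without sets 4 and 6. Of the 10 genes most like the 7, 2 remained with set means subtracted and 2 with no subtraction. The cause of these changes was not tested. Genes under 3 counts, such as the proteases in primary tumours 4 and 6, have only an upper limit.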
